A study of Drosophila melanogaster with 60 samples.

Results

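The genes described here encode subunits of the respiratory chain and ATP synthase in the nucleus of Drosophila melanogaster. They were chosen by symbol alone, as every gene whose FlyBase symbol begins with ND- (complex I), Sdh followed by A to D (complex II), UQCR- (complex III), COX4 to COX8 (complex IV) or ATPsyn (complex V). The rule found 87 of the 13969 genes in the tables. Of these, 63 carry plain names and are called ubiquitous here, and 24 carry names that end in L, with or without a number, and are called L paralogues. Complex I had 34 ubiquitous members and 6 L paralogues, complex II 4 and 3, complex III 6 and 3, complex IV 8 and 8, and complex V 11 and 4. Subunits with other names, such as blw, sun, levy, RFeSP and Cyt-c1, are outside the rule and were kept as a separate list.

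Complexes I to IV pass electrons from NADH and succinate to oxygen, and complexes I, III and IV pump protons across the inner mitochondrial membrane as they do so. Complex V lets the protons flow back and makes ATP. All complexes but II combine nuclear subunits with core subunits encoded by mitochondrial DNA. In Drosophila many nuclear subunit genes have a duplicate whose expression is known mainly from the testis, which is why the L paralogues are set beside the ubiquitous genes. The fat body does for the fly much of what liver and fat tissue do in mammals, and its mitochondria oxidise stored fat and sugar.

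Abdominal fat tissue attached to the epidermis was dissected from mated female flies, about 3 days old at the start, with tissue of 10 flies pooled per sample. All flies spent 5 days on a sucrose and yeast diet under a cycle of 12 h light and 12 h darkness. Wild-type flies (w1118) were kept at 25 °C or 18 °C, and flies carrying Clk-Jrk, a dominant-negative allele of the circadian activator gene Clock that had been backcrossed 7 times to w1118, at 25 °C. Both genotypes thus share the w1118 background. Wild type was sampled at 12 zeitgeber times (ZT, hours after lights on) and Clk-Jrk at 6, in 2 replicate sampling series each, on poly(A)-selected RNA. No data of Clk-Jrk at 18 °C were used here. The columns labelled ZT 2 and ZT 20 of replicate 1 at 18 °C were identical for every gene and were left out, which left 24 libraries of wild type at 25 °C, 22 at 18 °C and 12 of Clk-Jrk.

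Libraries of wild type at 25 °C held 5808864 to 46590109 estimated counts in total, those at 18 °C 4923858 to 25133564 and those of Clk-Jrk 10667764 to 28822277. Levels are given as TPM, a share of all transcripts scaled for transcript length, so that genes can be compared. Of 12 fat body markers, 11 had a median above 1 TPM in every group, and Fbp1, a larval storage protein receptor, did not. The summed level of these markers ran from 52380 to 180238 TPM in wild type at 25 °C, from 14252 to 112462 TPM at 18 °C and from 115538 to 172244 TPM in Clk-Jrk. RNA of the yolk proteins made up most of it. In wild type at 25 °C Yp1, Yp2 and Yp3 had medians of 36336, 27162 and 24584 TPM, beside a median sum of 89655 TPM. The RNA of Clk itself does not check the allele, and stood at medians of 4.30 TPM in wild type at 25 °C and 3.22 TPM in Clk-Jrk. RNA of timeless (tim), a target of CLK, had medians of 56.8 TPM and 3.33 TPM there (log2 −3.63 ± 0.27 SE, edgeR adjusted p = 3.48e-07). A set of 6 libraries stood apart, for RNA of other tissues (wild type at 25 °C, replicate 1, ZT 2, 4, 10 and 14, and at 18 °C, replicate 1, ZT 24) or for little mitochondrial RNA (Clk-Jrk, replicate 2, ZT 22). The set does not hold every library with such RNA. In replicate 1 at 25 °C the ovary markers summed to 14216 TPM at ZT 24, which was kept, and to 12588 TPM at ZT 2. Gut markers there summed to 12461 TPM at ZT 6, which was kept, and to 16522 TPM at ZT 14.

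The ubiquitous members were abundant in every library, and almost all L paralogues were at or near 0. Over the 58 libraries the 63 ubiquitous members had a median of their mean levels of 262 TPM, and the 24 L paralogues one of 0.0159 TPM. The median over all 9289 genes that passed the filter on low counts was 12.9 TPM. The ubiquitous members together made up 2.53% of all TPM in the median library of wild type at 25 °C, 2.39% at 18 °C and 2.13% in Clk-Jrk.

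**Figure D1:**
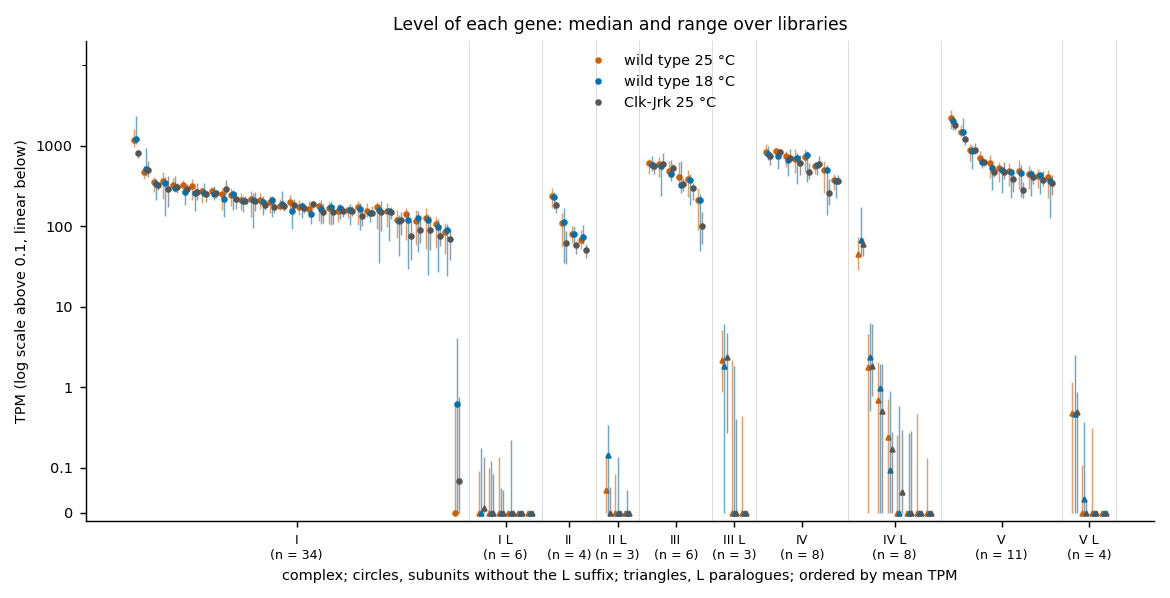
Level of each of the 87 genes in TPM (y axis, logarithmic above 0.1 and linear below), grouped by complex (x axis) with circles for ubiquitous members and triangles for L paralogues. Symbols are medians and lines the range over 24, 22 and 12 libraries of wild type at 25 °C, wild type at 18 °C and Clk-Jrk. COX7AL2 is the 1 triangle above 10 TPM, and ND-B8 the 1 circle below 1 TPM.

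Complex I, the entry point for electrons from NADH, had ubiquitous members from 0.415 to 1199 TPM, the widest spread of the complexes as a ratio of highest to lowest. The highest was ND-MLRQ, whose mammalian counterpart NDUFA4 is counted with complex IV. Its level ran from 964 to 1596 TPM (median 1178) in wild type at 25 °C, from 1050 to 2353 TPM (median 1194) at 18 °C and from 709 to 884 TPM (median 797) in Clk-Jrk. The Clk-Jrk libraries lay below every library of wild type. Next came ND-AGGG, a subunit of the membrane arm, with medians of 464, 512 and 502 TPM in the same order of groups. The iron-sulfur subunits of the arm that takes up NADH lay lower, with ND-75, the largest of them, at medians of 115, 126 and 90.1 TPM. ND-B8 had the lowest level, with counts above 0 in 32 of 58 libraries and a highest value of 4.12 TPM. It was the only ubiquitous member that did not pass the filter.

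Complex II, succinate dehydrogenase, which also belongs to the citric acid cycle, had the lowest median level of a ubiquitous member, 84.4 TPM. SdhC, a membrane anchor, was highest (medians 238, 232 and 185 TPM), followed by SdhB, the iron-sulfur subunit (108, 111 and 62.1 TPM). SdhA, the flavoprotein that binds succinate, was lowest, at 51.6 to 88.8 TPM in wild type at 25 °C, 60.5 to 102 TPM at 18 °C and 40.2 to 60.3 TPM in Clk-Jrk. The summed level of complex II had a median of 489 TPM in wild type at 25 °C, against 7928 TPM for complex I, 2710 TPM for complex III, 5315 TPM for complex IV and 8795 TPM for complex V.

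In complex III, which passes electrons from ubiquinol to cytochrome c, the small subunits UQCR-14 (medians 614, 578 and 553 TPM) and UQCR-Q (585, 558 and 598 TPM) were highest. UQCR-C2, a large core protein of the complex, was lowest (212, 210 and 100 TPM). In complex IV, cytochrome c oxidase, COX7C (833, 788 and 742 TPM) and COX7B (847, 745 and 840 TPM) were highest and COX5B (374, 367 and 367 TPM) lowest. Its members lay close together, with means from 363 to 800 TPM. In complex V, ATPsynC, which forms the rotating ring in the membrane, was the most abundant of all members at 2228, 2012 and 1775 TPM. It was followed by ATPsynbeta, the catalytic subunit (1475, 1491 and 1203 TPM), and ATPsyndelta, part of the central stalk, was lowest (410, 367 and 342 TPM).

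Of the 24 L paralogues, 21 had a mean under 1 TPM. ND-20L, ND-B14.5AL and ATPsynCF6L had 0 counts in all 58 libraries. Markers of testis and sperm were equally scarce: their 20 genes summed to between 0.625 and 10.9 TPM per library, and in each group at least 19 of them had a median under 1 TPM. The exception was COX7AL2 (FBgn0085201, chromosome 2L, 2192525 to 2197912, minus strand, BDGP6.54), a paralogue of the complex IV subunit COX7A. It was detected in 58 of 58 libraries, from 28.2 to 72.8 TPM (median 45.5) in wild type at 25 °C, from 43.0 to 173 TPM (median 67.6) at 18 °C and from 42.9 to 71.3 TPM (median 60.5) in Clk-Jrk. COX7A (FBgn0040529) had medians of 560, 575 and 595 TPM in the same groups.

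The next L paralogues were UQCR-11L (medians 2.20, 1.86 and 2.40 TPM) and COX6AL (1.78, 2.37 and 1.83 TPM). Each lies wholly within another gene on the same strand, Acsl and Cyp4aa1, so that reads of those genes may be counted there. COX7CL (0.702, 0.966 and 0.503 TPM), ATPsynepsilonL (0.474, 0.465 and 0.492 TPM) and COX4L (0.238, 0.0956 and 0.172 TPM) followed. UQCR-6.4L and SdhBL had means of 0.205 and 0.0802 TPM. The other L paralogues with a count in any library were COX7AL, ATPsynbetaL, ND-51L1, ND-49L, COX6CL, COX5BL, UQCR-14L, ATPsynGL, ND-51L2, ND-24L, SdhCL, COX6AL2 and SdhAL. COX7AL2 and COX6AL were the only L paralogues that passed the filter, so that 64 of 87 members could be tested, 62 of them ubiquitous.

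Before the groups are compared, a difference between the replicate sampling series has to be described, since its median over members in wild type exceeded the medians of both comparisons between groups. Averaged over times, 62 of 64 members were lower in replicate 1 than in replicate 2 in wild type at 25 °C, 57 at 18 °C and 64 in Clk-Jrk, but by unlike amounts. At 25 °C, 42 of 64 members were lower in replicate 1 at 12 of 12 times, where 5.57% of all genes were. At 18 °C, 44 of 64 were lower at 10 of 10 times, where 8.94% of all genes were, and 39 members met both conditions, as did 3.49% of all genes. The median difference of the members on the log2 CPM scale was −0.61 at 25 °C and −0.57 at 18 °C, beside 0.05 and 0.03 over all genes. In Clk-Jrk, 2 of 64 members, COX7A and ATPsynC, were lower in replicate 1 at 6 of 6 times, where 4.25% of all genes were, and the median was −0.15. Whether the series differed more in wild type than in Clk-Jrk was not tested.

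The size of the difference varied in a similar order at both temperatures (Spearman's rho 0.90 across the 64 members, which share libraries within a temperature and are not independent, and 0.61 across all 9289 genes). UQCR-C2 ran from 89.7 to 185 TPM in replicate 1 and from 239 to 298 TPM in replicate 2 at 25 °C. At 18 °C it ran from 48.9 to 209 TPM and from 193 to 253 TPM. The series did not overlap at 25 °C and overlapped at 18 °C, and the mean log2 differences were −1.31 ± 0.44 and −1.45 ± 0.78 (SD over 12 and 10 times). ND-75 (−1.23 and −1.13), ND-B18 (−1.05 and −1.20), ND-18 (−1.03 and −1.29), COX8 (−1.01 and −1.08), ATPsynF (−0.97 and −0.79) and SdhB (−0.95 and −1.06) were lower in the same way. These 7, chosen for description after their values were seen, come from all 5 complexes.

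Other members of the same complexes hardly differed between the series. UQCR-11 (0.09 and 0.33), ND-MLRQ (0.00 and 0.32), ND-MWFE (−0.06 and −0.02), UQCR-6.4 (−0.10 and −0.03) and ATPsynbeta (−0.15 and 0.10) had mean differences near or above 0. UQCR-C1, the other core protein of complex III, was at −0.90 and −0.87. By complex, the medians at 25 °C were −0.60 for I, −0.61 for II, −0.49 for III, −0.56 for IV with its 2 tested L paralogues and −0.73 for V.

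**Figure D2:**
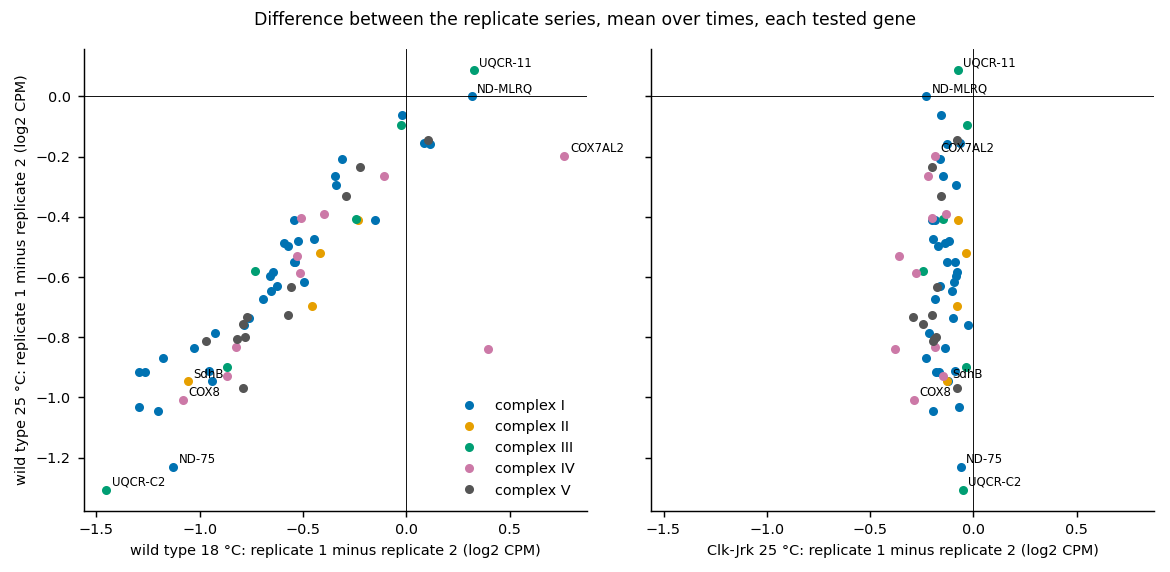
Mean difference of replicate 1 minus replicate 2 over times (log2 CPM) for each of the 64 tested members, coloured by complex, in wild type at 25 °C (y axis) against wild type at 18 °C (left) and Clk-Jrk (right). In wild type UQCR-C2 is the lowest point at both temperatures, below −1, and the highest is UQCR-11 at 25 °C and COX7AL2 at 18 °C, while in Clk-Jrk all lie between −0.38 and −0.03.

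RNA of the mitochondrially encoded subunits went the other way. In wild type at 25 °C its summed level ran from 61843 to 101390 TPM in replicate 1 and from 29297 to 36378 TPM in replicate 2, with no overlap. At 18 °C it ran from 62742 to 126906 TPM and from 32098 to 42644 TPM. Of the 12 tested mitochondrial genes, 11 were higher in replicate 1 at every time in each wild-type group. The summed ubiquitous nuclear members ran from 20129 to 25161 TPM in replicate 1 and from 25420 to 28787 TPM in replicate 2 at 25 °C, and from 18188 to 25138 TPM and 23159 to 25299 TPM at 18 °C. In Clk-Jrk the ranges were 20604 to 22808 TPM and 18744 to 24485 TPM, so that replicate 2 enclosed replicate 1. The summed RNA of the fat body markers, mostly that of the yolk proteins, was lower in replicate 1 as well. Its medians were 59249 against 142892 TPM at 25 °C and 21027 against 95264 TPM at 18 °C. Its part in the difference between the series was not tested. In bulk tissue, fewer cells of a type and less RNA per cell cannot be told apart.

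**Figure D3:**
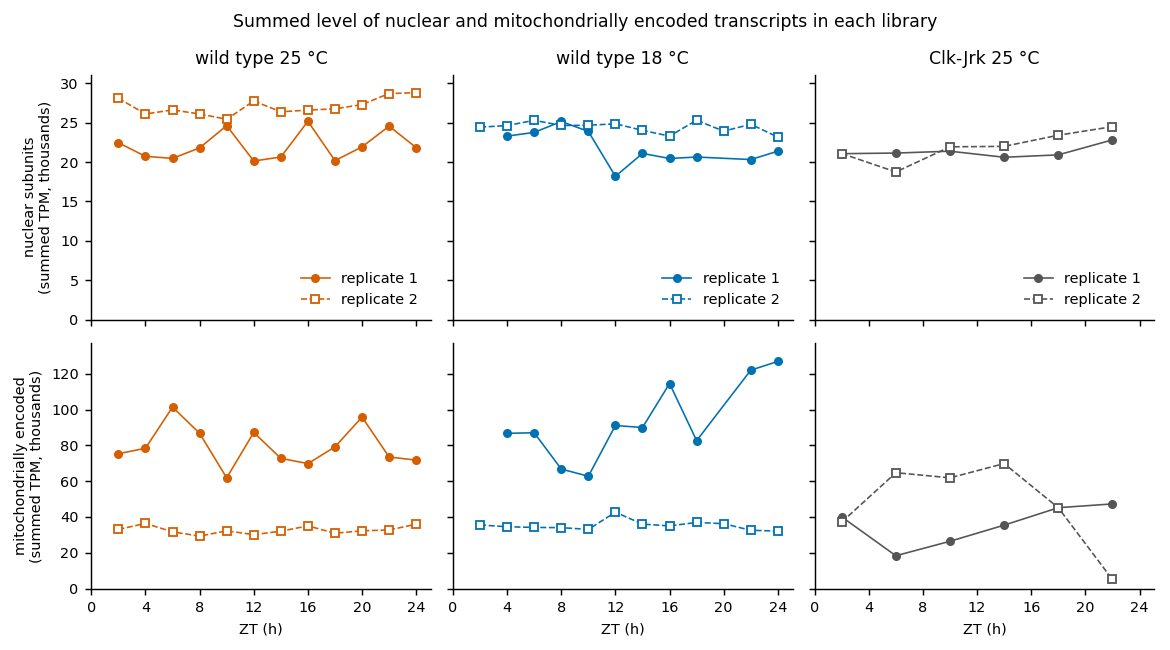
Summed TPM (y axes) of the ubiquitous nuclear members (top) and of the mitochondrially encoded genes (bottom) in each library against ZT in hours, for wild type at 25 °C, wild type at 18 °C and Clk-Jrk at 25 °C. Filled circles are replicate 1 and open squares replicate 2. In wild type at 25 °C the nuclear sum is at most 25161 TPM in replicate 1 and at least 25420 TPM in replicate 2, and the mitochondrial sums are separated in the opposite direction.

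The level between 18 °C and 25 °C in wild type was then compared over the day. At ZT 2 and ZT 20 the 18 °C group held 1 library each, of replicate 2, while 25 °C held both series. Most members were higher in replicate 2, and the fit gave each time equal weight. The imbalance thus raises the fitted level of most members at 18 °C. A fit with a term for the series called a majority of the members and 59.4% of all genes, as given at the end. The counts here thus depend on the fit. Without that term few members passed the test. COX7AL2 rose most, and small falls passed in complexes I and III, led by ND-19, a subunit of complex I. Of 64 members, 2 rose and 5 fell, and 57 did not pass an edgeR adjusted p under 0.05, which makes 10.9% called where 48.5% of all genes were (23.3% higher and 25.3% lower). All complexes leaned slightly below 0: the median log2 difference of the ubiquitous members was −0.12 in I, −0.06 in II, −0.14 in III, −0.10 in IV and −0.15 in V, beside −0.02 over all genes, and 52 of 64 members were below 0. No ubiquitous member of complexes II, IV or V passed in this edgeR fit, with 0, 0 and 1 at an unadjusted p under 0.05. The edgeR fit with a term for the series called members in each of these complexes. With limma on log2(TPM + 1) 1 each passed there. The rule's members are not independent of each other, so the lean carries no test.

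COX7AL2 ran at 3.40 ± 0.54 log2 CPM at 18 °C (SD, n = 22) and 2.56 ± 0.52 at 25 °C (n = 24), and was 1.80-fold higher at 18 °C (log2 difference 0.85 ± 0.16 SE, edgeR adjusted p = 0.000222), at 11 of 12 times. Within replicate 1 it ran from 61.8 to 173 TPM at 18 °C and from 28.2 to 72.8 TPM at 25 °C, and within replicate 2 from 43.0 to 81.7 TPM and 31.3 to 55.9 TPM. The difference was 1.38 ± 0.25 in replicate 1 alone and 0.39 ± 0.13 in replicate 2 alone (edgeR adjusted p = 0.00256 and 0.0413). Muscle markers were higher at 18 °C too. Of 18, 12 rose, with a median of 0.52, and their sum ran from 4499 to 9825 TPM in replicate 1 at 18 °C against 2119 to 4743 TPM in replicate 1 at 25 °C. In replicate 2 the sums overlapped, at 3175 to 5136 TPM against 2771 to 4689 TPM, and with replicate 2 alone 2 muscle markers were called higher and 1 lower (median 0.01). No muscle marker had a median of 0. Ovary markers fell in 18 of 19 cases (median −2.73). Of the other marker lists, 8 of 8 haemocyte, 5 of 7 oenocyte and epidermis, 3 of 9 photoreceptor and neuron, 2 of 11 fat body, 1 of 13 gut and 1 of 7 Malpighian tubule genes rose, and 0, 0, 1, 1, 0 and 2 of them fell. None of 3 spermatheca and 2 testis genes passed in edgeR, with 0 at an unadjusted p under 0.05. With the mean levels of the muscle, ovary and gut markers as covariates, COX7AL2 differed by 0.22 (edgeR adjusted p = 0.25) and 8.88% of all genes were called. COX6AL, the other tested L paralogue, did not pass, at 0.96 in replicate 1 and −0.51 in replicate 2. COX7A did not pass either, with medians of 575 TPM at 18 °C and 560 TPM at 25 °C.

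In complex I, ND-19 (FBgn0035046), whose human counterpart is NDUFA8, ran from 93.0 to 177 TPM at 18 °C (median 152) and from 143 to 243 TPM at 25 °C (median 200). It was lower at 12 of 12 times (log2 −0.42 ± 0.13, edgeR adjusted p = 0.0121), at −0.53 in replicate 1 alone and −0.45 in replicate 2 alone, and it passed in 22 of 22 alternative fits. ND-MNLL (log2 −0.22 ± 0.09, edgeR adjusted p = 0.0401) and ND-SGDH (−0.31 ± 0.13, adjusted p = 0.0432), both of the membrane arm, fell at 9 and 10 of 12 times. ND-MNLL shares its annotated span and strand with CG45089, so reads of that gene may be counted with it. ND-AGGG was higher (0.23 ± 0.09, edgeR adjusted p = 0.0294), at 9 of 12 times, by 0.32 in replicate 1 and 0.09 in replicate 2, and at −0.05 with the marker covariates.

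In complex III, UQCR-11 fell at 12 of 12 times (log2 −0.27 ± 0.09, edgeR adjusted p = 0.0127) and UQCR-6.4, another small subunit, at 9 of 12 (−0.15 ± 0.06, adjusted p = 0.0476). UQCR-11 ran from 259 to 322 TPM in replicate 2 at 18 °C, below its range of 331 to 443 TPM in replicate 2 at 25 °C, while in replicate 1 the temperatures overlapped. The differences in the series alone were −0.17 and −0.38. The count of members called depended on the series kept: 25 passed in replicate 2 alone (1 higher, 24 lower) and 6 in replicate 1 alone (1 higher, 5 lower), where 31.8% and 34.6% of all genes were called. In replicate 2 alone 6 members of complex V and 4 of complex IV were among those called lower.

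**Figure D4:**
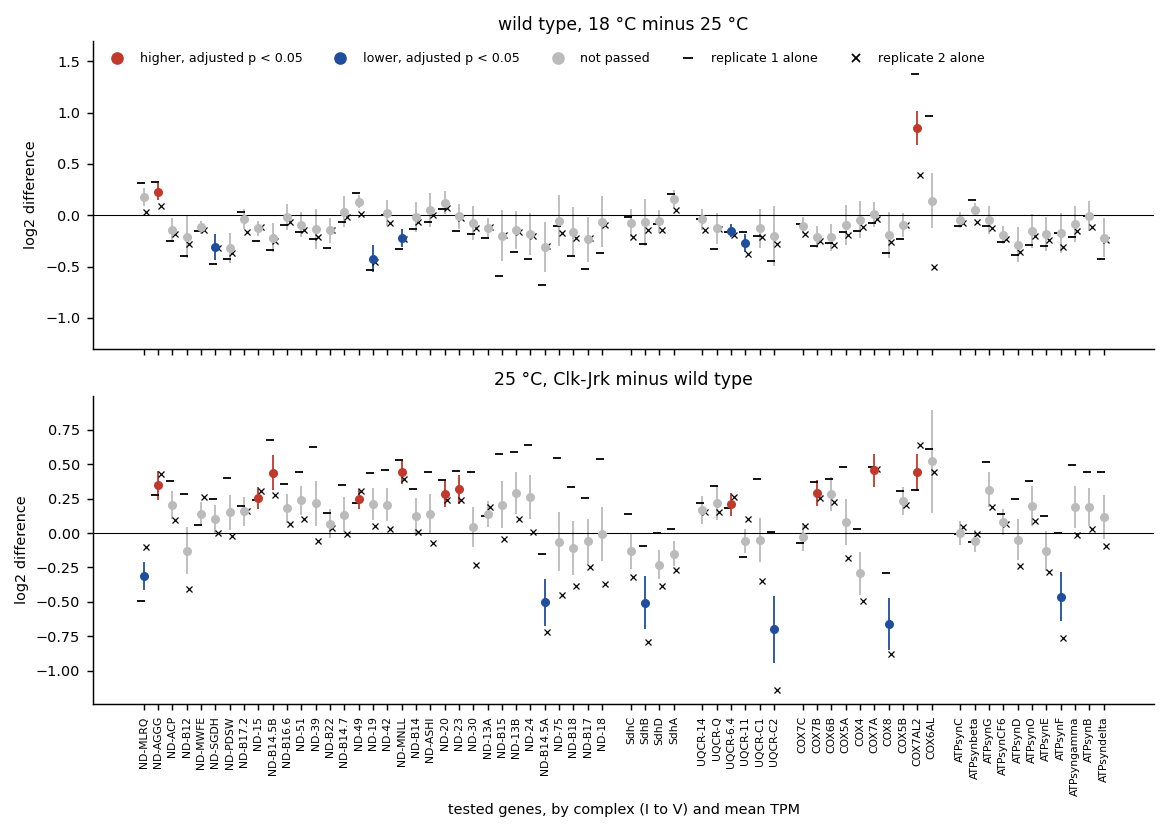
Log2 difference in level for each of the 64 tested members, by complex and within a complex by mean TPM, at 18 °C minus 25 °C in wild type (top) and in Clk-Jrk minus wild type at 25 °C (bottom). Circles with bars are fitted values ± SE, red higher and blue lower at an adjusted p under 0.05. Dashes and crosses are replicate 1 and replicate 2 alone. In the lower panel dashes and crosses of UQCR-C2, COX8, SdhB and ATPsynF lie far apart.

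Genes that work with these subunits were compared in the same fit, as lists. Of 8 tested subunits outside the symbol rule, including cytochrome c itself, ox fell (log2 −0.29, edgeR adjusted p = 0.0125) and 7 did not pass (median −0.15). Of 9 assembly factors tested, 5 fell, among them Scox (−0.46), Cox11 (−0.48) and Cox10 (−0.29), which deliver copper or make heme for complex IV, and Bcs1 (−0.34), which inserts the Rieske protein into complex III. That list held 21 names, of which only 9 matched a gene symbol here, so these counts do not stand for the class. Of 14 genes of the citric acid cycle, Ogdh (0.61), Idh3a (0.26) and ScsbetaA (0.22) rose and ScsbetaG (−0.53) fell. Of 10 regulators of mitochondrial genes, 5 fell, with Ets97D (−0.65), a subunit of the fly's GABP, PolG1 (−0.55), the mitochondrial DNA polymerase, and srl (−0.71), the fly's PGC-1, at adjusted p = 7.2e-05, 0.00184 and 0.00909, and ERR rose (0.38). Of 12 mitochondrially encoded genes 0 passed in edgeR or limma, with 0 at an unadjusted p under 0.05 in each.

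The genotypes were compared at 25 °C over the 6 times that they share, with 12 libraries each. Members moved in both directions. The subunits ND-MNLL, COX7A and ND-B14.5B and the paralogue COX7AL2 held more RNA in Clk-Jrk, and UQCR-C2, COX8, SdhB, ND-B14.5A, ATPsynF and ND-MLRQ held less. Of 64 members, 11 rose, 6 fell and 47 did not pass, which makes 26.6% called where 43.4% of all genes were (18.5% higher and 24.9% lower). Medians of the ubiquitous members were 0.16 in complex I, −0.19 in II, 0.06 in III, 0.15 in IV and 0.08 in V, beside −0.08 over all genes.

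The rises depend on the scale. In log2(TPM + 1) the median of all genes was −0.28 in Clk-Jrk, and there 3 members were called higher and 17 lower (20 in all), where 55.5% of all genes were called, 628 higher and 4531 lower. On that scale the complex I median was −0.08, still above that of all genes. ND-MNLL ran from 166 to 208 TPM in Clk-Jrk and from 131 to 185 TPM in wild type at the same times, and was 1.36-fold higher at 6 of 6 times (log2 0.44 ± 0.08, edgeR adjusted p = 0.000596). It was 0.20 higher on the log2(TPM + 1) scale and passed in 15 of 15 alternative fits. ND-B14.5B, a membrane arm subunit, ran from 250.0 to 376 TPM in Clk-Jrk against 160.5 to 284 TPM in wild type (0.44 ± 0.13, adjusted p = 0.0110, and 0.33 on the log2(TPM + 1) scale). Its mean log2 CPM over all times in replicate 1 was 6.62 in Clk-Jrk and 5.88 in wild type at 25 °C. In replicate 2 these means were 6.70 and 6.47, a smaller gap. For ND-MNLL they were 5.88 and 5.31 in replicate 1, and 5.97 and 5.60 in replicate 2. ND-49, an iron-sulfur core subunit, followed in complex I (0.24 ± 0.07, edgeR adjusted p = 0.0132). It was at −0.05 on the log2(TPM + 1) scale. ND-15 (0.26), ND-AGGG (0.35), and the iron-sulfur subunits ND-23 (0.32) and ND-20 (0.29) rose as well, at −0.07, 0.16, 0.03 and 0.03 on that scale.

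In complex IV, COX7A ran from 531 to 738 TPM in Clk-Jrk (median 595) and from 474 to 633 TPM in wild type at the same times (median 557), and rose 1.37-fold at 6 of 6 times (log2 0.45 ± 0.12, edgeR adjusted p = 0.00778). On the log2(TPM + 1) scale it was at 0.15 and did not pass (limma adjusted p = 0.113). COX7AL2 rose 1.36-fold (0.44 ± 0.13, edgeR adjusted p = 0.0144) and was at 0.34 on the log2(TPM + 1) scale (limma adjusted p = 0.023). Mean log2 CPM over all times in replicate 1 was 8.01 in Clk-Jrk and 7.45 in wild type at 25 °C for COX7A, and 2.97 and 2.47 for COX7AL2. In replicate 2 it was 8.37 and 7.98 for COX7A, and 3.15 and 2.66 for COX7AL2. COX7B rose by 0.29 and was at −0.00 there. In complex III, UQCR-6.4 rose by 0.21 (edgeR adjusted p = 0.0495) and was at 0.08 there.

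The 6 falls passed on both scales and, ND-MLRQ apart, were larger against replicate 2 of wild type than against replicate 1. The log2(TPM + 1) scale is no separate support for them, since the median of all genes was −0.28 there. With relative log expression size factors SdhB and ATPsynF did not pass (edgeR adjusted p = 0.0541 and 0.0576), nor did they without the filter (0.0633 and 0.0718). UQCR-C2 (FBgn0250814, chromosome 3L, 16584124 to 16586111, plus strand) ran from 59.6 to 150 TPM in Clk-Jrk, from 89.7 to 185 TPM in replicate 1 of wild type at 25 °C and from 239 to 298 TPM in replicate 2. Clk-Jrk thus overlapped replicate 1 and lay below replicate 2. The fitted difference was −0.70 ± 0.24 (edgeR adjusted p = 0.0309), at 0.01 in replicate 1 alone and −1.14 ± 0.20 in replicate 2 alone. COX8 (−0.66 ± 0.19, adjusted p = 0.0112) was at −0.29 and −0.87 in the series alone. It ran from 180.5 to 385 TPM in Clk-Jrk, 260 to 446 TPM in replicate 1 and 551 to 651 TPM in replicate 2 of wild type.

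SdhB (−0.51 ± 0.19, edgeR adjusted p = 0.0429) was at −0.10 in replicate 1 alone and −0.79 in replicate 2 alone. ND-B14.5A (−0.50 ± 0.17, adjusted p = 0.0266) was at −0.15 and −0.72, and ATPsynF, a subunit of the membrane part of complex V (−0.46 ± 0.18, adjusted p = 0.0469), at −0.00 and −0.76. ND-MLRQ (−0.31 ± 0.10, edgeR adjusted p = 0.0188) showed the opposite order, −0.49 in replicate 1 alone and −0.10 in replicate 2 alone, and −0.59 on the log2(TPM + 1) scale. Its Clk-Jrk range of 709 to 884 TPM lay below both wild-type series, 1063 to 1596 TPM and 964 to 1210 TPM. With the marker covariates 0 of the 6 falls passed in edgeR, with values from −0.48 to −0.16, and 14 members were called, all higher, where 33.4% of all genes were called, 1233 higher and 1870 lower. Without the libraries that stand apart, 8 were called, 3 higher and 5 lower, where 31.2% of all genes were, 1400 higher and 1499 lower. The 3 higher were ND-MNLL, ND-49 and ND-AGGG. COX7A, COX7AL2 and ND-B14.5B did not pass there (edgeR adjusted p = 0.0661, 0.0564 and 0.0916), nor did the fall of ND-MLRQ (0.0752).

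**Figure D5:**
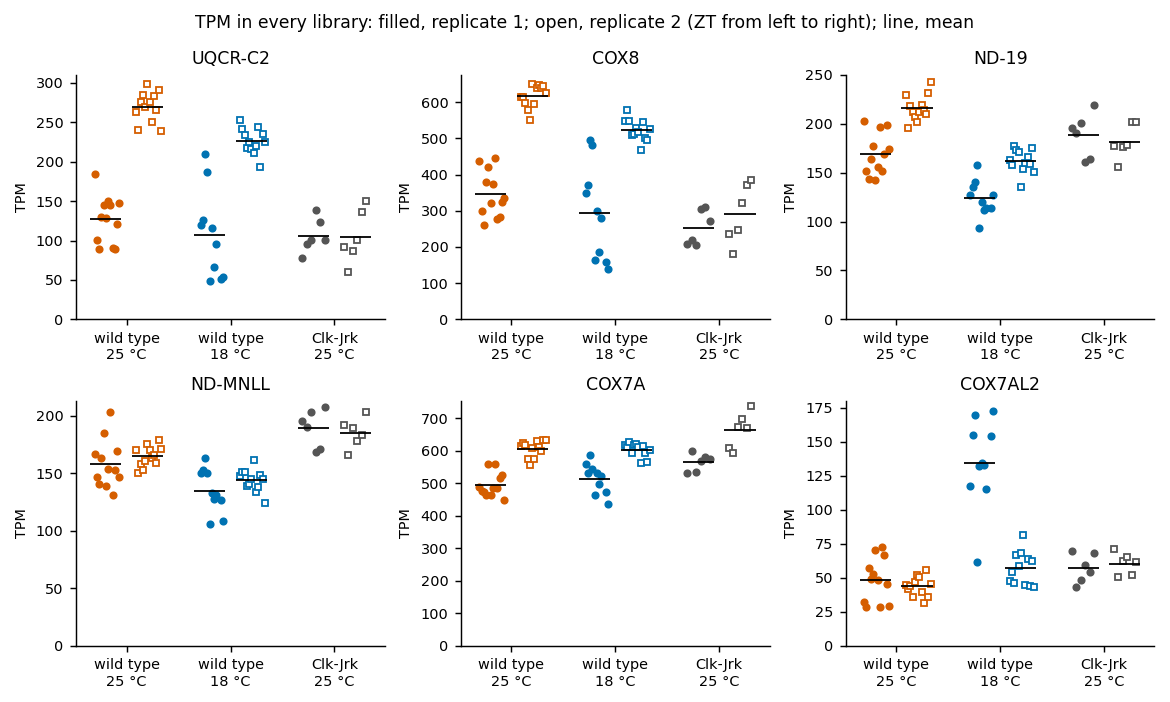
TPM of UQCR-C2, COX8, ND-19, ND-MNLL, COX7A and COX7AL2 in every library of the 3 groups. Filled circles are replicate 1, open squares replicate 2, each ordered by ZT from left to right, and lines are means. Clk-Jrk libraries of UQCR-C2 and COX8 lie within or below the range of replicate 1 of wild type at 25 °C. COX7AL2 reaches its highest values in replicate 1 at 18 °C.

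Muscle markers were lower in Clk-Jrk: 9 of 18 fell and 0 rose, and their sum ran from 1856 to 3642 TPM against 2361 to 4743 TPM in wild type at the same times. Of 19 ovary markers 8 fell and 0 rose. Of the other lists, 6 of 11 fat body, 4 of 8 haemocyte and 4 of 7 oenocyte and epidermis genes rose, with 1, 0 and 0 lower, and 2 of 13 gut, 3 of 7 Malpighian tubule, 3 of 9 photoreceptor and neuron, 1 of 3 spermatheca and 1 of 2 testis genes fell, with 0 higher. Of the subunits outside the rule, ox rose (0.44) while cytochrome c (Cyt-c-p, −0.32) and the Rieske protein RFeSP (−0.58) fell. RFeSP was at 0.02 in replicate 1 alone and −0.96 in replicate 2 alone, the pattern of UQCR-C2. Of 9 assembly factors, Surf1 (0.47), CIA30 (0.33) and Scox (0.28) rose and Cox17 (−0.53) and Sirup (−0.52) fell. In the citric acid cycle Fum1 rose (0.56) and kdn (−0.47) and Idh3a (−0.22) fell. Of 10 regulators, mtTFB1 rose (0.30) and ewg, the fly's NRF1 (−0.50), and srl (−0.97) fell.

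Of the 12 tested mitochondrially encoded genes, 2 subunits of complex I fell in Clk-Jrk and 10 genes did not pass. mt:ND6 ran from 0.508 to 5.75 TPM in Clk-Jrk, against 56.7 to 368 TPM in wild type at 25 °C and 51.4 to 351 TPM at 18 °C, with no overlap (log2 −5.63 ± 0.38, edgeR adjusted p = 1.24e-07). mt:ND4L ran from 0 to 44.8 TPM against 55.1 to 973 TPM in wild type at 25 °C (log2 −2.53 ± 0.59, adjusted p = 0.00314). The other 10 overlapped between the groups. Poly(A) selection samples mitochondrial RNA only as far as it carries poly(A) tails.

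Times of day and night were sampled from separate incubators on opposite light schedules, so that incubator and time cannot be told apart. No member followed a 24 h cosine curve at an edgeR adjusted p under 0.05 in any group. In wild type at 25 °C, 0 of 64 members passed in edgeR, DESeq2 or limma, where 0.398% of all genes passed in edgeR, and 0, 0 and 3 had an unadjusted p under 0.05. The smallest p values were those of COX6AL (p = 0.105, edgeR adjusted p = 0.599) and COX7AL2 (p = 0.137, adjusted p = 0.601), both L paralogues of low level. The median fitted amplitude of the members, which is the rise from the mean to the peak in log2 units, was 0.10. At 18 °C again 0 passed with the 3 tools, where 1.94% of all genes passed in edgeR, with 1, 1 and 0 at an unadjusted p under 0.05. UQCR-6.4 came nearest there, with an amplitude of 0.17 ± 0.05 and a fitted peak at ZT 3.44 ± 1.17 h (edgeR adjusted p = 0.189), followed by ATPsynC (adjusted p = 0.438).

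In Clk-Jrk, 0 members passed in edgeR, where 0.0% of all genes did, but 27 of 64 had an unadjusted p under 0.05 (42.2%, beside 15.4% of all genes). They comprised 17 members of complex I, 1 of II, 4 of III, 2 of IV and 3 of V. DESeq2 called 3, ND-B14.5A, COX8 and COX5A, where it called 1.83% of all genes, and limma 0. ND-B14.5A had an amplitude of 0.54 ± 0.11 and a fitted peak at ZT 19.0 ± 0.80 h (edgeR adjusted p = 0.302, DESeq2 adjusted p = 0.00744), and COX8 an amplitude of 0.43 ± 0.12 and a peak at ZT 19.6 ± 1.07 h (edgeR adjusted p = 0.302). The 27 fitted peaks fell between ZT 18.5 and ZT 1.79. The summed level of the ubiquitous members was 18744 and 21138 TPM at ZT 6 and 22808 and 24485 TPM at ZT 22. With 1 time left out the number at an unadjusted p under 0.05 ranged from 6 (without ZT 10) to 50 (without ZT 18) among members and from 448 to 2542 among all genes, with 2542 and 1280 in those same fits. Among members it was 16 without replicate 2 at ZT 22, a library with little mitochondrial RNA (5054 TPM), 3 in replicate 2 alone and 30 in replicate 1 alone. Among all genes the numbers moved in the same order, at 934, 492 and 1308.

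Differences in rhythm were tested directly. Between 18 °C and 25 °C, 0 members passed in edgeR, DESeq2 or limma, where 0.118% of all genes did in edgeR, with 2, 3 and 1 at an unadjusted p under 0.05. UQCR-6.4 (p = 0.00801, edgeR adjusted p = 0.265) and ND-MWFE (p = 0.0304, adjusted p = 0.324) had the smallest p. Between Clk-Jrk and wild type, 0 passed in any of the 3 tools, where 0.0% of all genes did in edgeR, with 0, 1 and 2 at an unadjusted p under 0.05. The smallest p there were those of ND-B14.5A (edgeR adjusted p = 0.505) and ND-MWFE (adjusted p = 0.552). With the marker covariates 30 members had an unadjusted p under 0.05 for this difference, beside 1044 of all genes, and 0 passed in edgeR. At the adjusted threshold no difference in rhythm between the genotypes was shown for a member.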

How the data were processed

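Poly(A)-selected RNA was sequenced on an Illumina instrument, per the labels' protocols, and kallisto 0.46.2 is named in the submitters' processing notes. The sources used here give neither the transcriptome release nor the strand setting. The authors deposited estimated counts per gene, of which 80.5% of the values above 0 lay within 0.001 of a whole number, and TPM, with 60 libraries in the tables and 0 columns left unmapped. Gene symbols and positions came from the BDGP6.54 annotation, which matched 13950 of 13969 gene IDs.

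The estimated counts were rounded to whole numbers. Genes were filtered with filterByExpr, scaled by TMM and tested with edgeR 4.0.16 (R 4.3.3) by its quasi-likelihood test, with Benjamini-Hochberg adjustment over all 9289 genes and a threshold of 0.05. Each group had a fitted mean at each time, and levels were contrasted as these means averaged over the times both groups have (12 at 18 °C and 25 °C, 6 for Clk-Jrk), and rhythms with a cosine of 24 h. Log2 CPM used a prior count of 2. Alternatives were DESeq2 1.42.0, limma 3.58.1 on log2(TPM + 1), relative log expression size factors, no filter, each replicate or time left out, the libraries that stand apart left out, marker levels as covariates, an incubator step, the identical libraries kept, and a replicate block. Tests were checked on simulated data.

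The 2 replicates per time are independent samplings, per the labels, and p-values measure the spread between these samples. The main fit had no term for the series. For the members in wild type this spread therefore includes the difference between the series described above. The total counts limit precision by counting error only for the lowest genes. Replicate numbers were not taken as pairing the samples. Members and gene lists were chosen with earlier results of these data known. Named with values were, per complex, the 2 highest and the lowest ubiquitous members by mean TPM, the 8 highest L paralogues, per complex and comparison the 3 called members with the smallest adjusted p, and the 2 smallest p of rhythm tests without a call. Every called member was named, and at most 4 genes per list.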

Additional observations from a re-analysis of the deposited data

How the results depend on the processing

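Of the 7 members called between 18 °C and 25 °C in edgeR, the number became 34 with the replicate block (3 higher, 31 lower; 18 in complex I, 1 in II, 5 in III, 3 in IV and 6 in V and 1 L paralogue), 4 with marker covariates and 12 with the identical libraries kept, where 59.4%, 8.88% and 53.1% of all genes were called, and 4 to 25 with 1 replicate or 1 time left out (25 without replicate 1, and 4 without ZT 8, 10, 14, 16, 18 or 22). With 1 replicate or 1 time left out, 31.8% to 49.4% of all genes were called between the temperatures. Of the 17 between Clk-Jrk and wild type, the number became 8 without the libraries that stand apart (31.2% of all genes) and 24 with the replicate block (45.2%). It was 8 to 14 with 1 replicate or 1 time left out (10 and 9 without replicate 1 and 2, 8 without ZT 2, 10 without ZT 6 and 9 without ZT 22). Of all genes, 28.1% and 14.2% were called without replicate 1 and 2. The shares were 34.4%, 36.1% and 36.8% without ZT 2, 6 and 22. DESeq2 called 3 rhythmic members in Clk-Jrk where edgeR called 0. Called members that changed sign were ND-AGGG at −0.048 between temperatures with marker covariates, and, in Clk-Jrk, ND-49 at −0.049, ND-15 at −0.072 and COX7B at −0.0016 on the log2(TPM + 1) scale, and UQCR-C2 at 0.0062 without replicate 2 (−1.14 without replicate 1). Between temperatures the medians of all 5 complexes were below 0 in every alternative, from −0.31 to −0.09 in complex I. In Clk-Jrk each complex's median changed sign between alternatives: it ran from −0.08 to 0.38 in I, from −0.46 to 0.01 in II, from −0.21 to 0.20 in III, from −0.07 to 0.34 in IV and from −0.16 to 0.25 in V. The causes were not tested. Same-numbered samples correlated from −0.19 to 0.55 between the wild-type groups and from −0.59 to 0.21 between Clk-Jrk and wild type, so not every pair exceeded 0.1 (8 of 10 and 1 of 6 did) and the numbers were not taken as pairing the samples, although the members' differences between the series were alike at both temperatures. The 23 members that did not pass the filter on low counts, 22 of them L paralogues, were not tested.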
